A study of Mus musculus with 12 samples.

Results

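The BCL2 family of cell death regulators was described in primary mouse embryonic fibroblasts (MEFs) with or without HtrA2, a protease housed between the mitochondrial membranes, after exposure to rotenone, which blocks complex I of the respiratory chain. The family was defined as 10 genes, Bid, Pmaip1, Bbc3, Bax, Bak1, Bcl2, Bcl2l1, Bcl2l11, Mcl1 and Bad, and its members were all probe sets whose array annotation named 1 of these genes and no other. This gave 24 of the 22626 probe sets tested, for 9 of the 10 genes: 6 for Mcl1, 5 for Bcl2l11, 4 for Bcl2l1, 2 each for Bid, Bak1 and Bad, and 1 each for Pmaip1, Bbc3 and Bcl2. No probe set was named for Bax, which was not analysed here. The values are log2 transcript levels from Affymetrix arrays, so a difference of 1 stands for a doubling, and the levels of different members were not set against each other.

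There were 12 arrays in 4 groups of 3: HtrA2 KO cells with 1 µM rotenone for 4 h, HtrA2 KO cells with vehicle for 4 h, WT cells with 1 µM rotenone for 4 h, and WT cells with vehicle for 4 h. All cells were primary fibroblasts at passage 4. Each group held arrays numbered 1, 2 and 3, and the labels do not say whether a number stands for an embryo, a culture or a day, so the p-values reflect variation among the arrays alone, and that variation may be technical. The labels give no age or strain of the mice and do not describe the Htra2 allele.

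Proteins of the BCL2 family decide whether the outer mitochondrial membrane is opened, which releases cytochrome c and HtrA2 itself into the cytosol and starts caspase activation. Bax and Bak1 form the pores, BCL2-like guardians such as Bcl2, Bcl2l1 (Bcl-xL) and Mcl1 hold them back, and BH3-only proteins such as Bid, Bcl2l11 (Bim), Bbc3 (Puma), Pmaip1 (Noxa) and Bad engage the guardians or activate the pore formers. Several of these genes are controlled by transcription, but cleavage, phosphorylation and protein turnover also set their activity, and arrays do not measure these steps.

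Promoter sequences are shown for Bid, Mcl1 and Bbc3, because Bid was 1 of the genes called with rotenone and Mcl1 and Bbc3 were called lower on arrays numbered 3. Each window covers 250 bases before and 50 after an annotated start, is printed 5′ to 3′ on the gene's own strand, and was taken from RefSeq, build GRCm38.p6. Capitals mark matches, on either strand, to the GC box GGGCGG, the CCAAT box, the cyclic AMP response half-site TGACG, the composite core TGATGNAA of C/EBP and ATF factors, the AP-1 motif TGANTCA or the E-box CACGTG, and overlapping matches run together. The Bid window is chr6:120916775-120917074 on the minus strand, the Mcl1 window is chr3:95658471-95658770 on the plus strand, and the Bbc3 window, the most upstream of 3, is chr7:16309333-16309632 on the plus strand.
Bid: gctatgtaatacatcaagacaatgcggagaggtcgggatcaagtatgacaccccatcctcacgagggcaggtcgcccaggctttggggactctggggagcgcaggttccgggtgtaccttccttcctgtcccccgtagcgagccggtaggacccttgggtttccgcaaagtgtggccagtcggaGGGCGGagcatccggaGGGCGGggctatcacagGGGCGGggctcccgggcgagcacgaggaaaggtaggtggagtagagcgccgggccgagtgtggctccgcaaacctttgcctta
Mcl1: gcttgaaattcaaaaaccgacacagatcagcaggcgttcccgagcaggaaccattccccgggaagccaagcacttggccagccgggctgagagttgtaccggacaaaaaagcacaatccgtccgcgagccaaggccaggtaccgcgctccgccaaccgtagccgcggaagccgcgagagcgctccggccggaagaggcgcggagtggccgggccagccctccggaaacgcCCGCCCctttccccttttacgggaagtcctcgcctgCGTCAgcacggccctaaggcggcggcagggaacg
Bbc3: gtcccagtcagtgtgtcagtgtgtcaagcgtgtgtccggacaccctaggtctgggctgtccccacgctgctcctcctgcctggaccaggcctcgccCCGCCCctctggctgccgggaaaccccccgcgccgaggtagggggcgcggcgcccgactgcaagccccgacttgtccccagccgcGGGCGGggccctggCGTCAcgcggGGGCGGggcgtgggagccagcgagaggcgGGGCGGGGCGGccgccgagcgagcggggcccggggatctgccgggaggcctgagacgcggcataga
The Bid window held 3 GC boxes, whose first bases lay at -66, -50 and -33 from the start. The Mcl1 window held a GC box at -20 and a TGACG match at 17. The Bbc3 window held 5 GC boxes and a TGACG match at -55. Windows were examined for 8 of the 9 measured genes, and the remaining gene was left out of the counts. Of the 14 windows, 9 held a GC box, against 35.7% of all 32851 windows of the same length. Among the 14 windows a further 3 motifs were rarer than the GC box: 4 held CCAAT (37.4% of all windows), 3 held TGACG (20.8%) and 1 held CACGTG (7.15%). None held TGATGNAA (3.97% of all windows), TGANTCA (7.81%) or the p53 half-site decamer (8.36%). Some of these windows overlap or belong to the same gene, and a match describes letters only.

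The labels and the cells were checked first. On the brighter Htra2 probe set, the 6 KO arrays lay between 7.57 and 7.87 and the 6 WT arrays between 8.83 and 9.32. A genotype entry reading knockout on the 3 WT rotenone arrays went against their titles; they lay between 9.02 and 9.14 and were grouped as WT. The dimmer Htra2 probe set showed no such loss, with 8.14 to 8.53 on the KO arrays and 7.72 to 8.43 on the WT arrays. The 12 fibroblast markers had mean levels of 8.25 (Pdgfra) to 13.99 (Vim), and none lay below the 40th percentile of the array. The 10 leukocyte markers lay at 4.69 to 8.31 (5 below that percentile), the 7 endothelial ones at 5.11 to 8.39 (6 below) and the 7 epithelial ones at 3.92 to 8.42 (3 below). These ranges overlap, and a level also depends on the probes, so they describe the lists and do not settle which cells were present. The arrays numbered 3 stood apart from the other 8 in all 4 groups, and the first principal component, with 44.7% of the variance, separated them.

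Rotenone came with higher levels of the BH3-only genes Bid and Pmaip1 in all 6 same-numbered pairs of rotenone and vehicle arrays. The differences were 0.39 ± 0.11 and 0.63 ± 0.23 on the log2 scale (SE without a block for the number, mean of both genotypes). Without a block for the number, neither passed the threshold of an adjusted p of 0.05 in limma (0.310 for Bid, 0.486 for Pmaip1), and 0 of 24 member probe sets did, where 0.217% of all probe sets were called. At an unadjusted p under 0.05 there were 4 of 24, against 7.9% of all probe sets, and with the block 6 of 24, against 15%. With the replicate number as a block, both were called higher, at an adjusted p of 0.0113 for Bid and 0.0129 for Pmaip1. These were 2 of 24 member probe sets, 8.33%, where the block called 2.46% of all probe sets and 1.33% higher. The guardians, the pore former Bak1 and the other BH3-only genes were not called in either fit.

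Bid, which caspase-8 cleaves to a fragment that moves to mitochondria, has 2 probe sets. The brighter read 8.06, 8.22 and 8.33 on KO rotenone arrays 1, 2 and 3, against 7.55, 7.61 and 8.15 on KO vehicle arrays 1, 2 and 3. In WT cells it read 8.42, 8.38 and 8.51 with rotenone, against 8.03, 7.91 and 8.33 with vehicle. WT rotenone and WT vehicle arrays did not overlap, while KO vehicle array 3 lay above KO rotenone array 1. Group means were 8.21 ± 0.13 in KO rotenone, 7.77 ± 0.33 in KO vehicle, 8.44 ± 0.07 in WT rotenone and 8.09 ± 0.22 in WT vehicle cells (SD, n = 3 each). From high to low the order was WT rotenone, KO rotenone, WT vehicle and KO vehicle; the arrays of the first and second did not overlap, and those of the other neighbours did. The rotenone difference was 0.43 in KO and 0.35 in WT cells, with adjusted p of 0.145 and 0.217 under the block. The second probe set moved the same way in all 6 pairs, with a mean difference of 0.21. Its rotenone and vehicle arrays did not overlap in either genotype, and its adjusted p under the block was 0.124. The 2 probe sets correlated at r = 0.85 over the 12 arrays, which share groups and numbers.

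Pmaip1, whose protein Noxa binds and helps to remove the guardian MCL1, read 10.78, 10.49 and 9.43 on KO rotenone arrays 1, 2 and 3, against 9.84, 9.99 and 9.15 on KO vehicle arrays. In WT cells it read 10.29, 10.27 and 9.68 with rotenone, against 9.62, 9.21 and 9.34 with vehicle. Every WT rotenone array lay above every WT vehicle array, whereas KO rotenone array 3 lay below KO vehicle arrays 1 and 2. Group means were 10.23 ± 0.71 in KO rotenone, 9.66 ± 0.45 in KO vehicle, 10.08 ± 0.35 in WT rotenone and 9.39 ± 0.21 in WT vehicle cells (SD, n = 3 each). From high to low the order was KO rotenone, WT rotenone, KO vehicle and WT vehicle, and each group's arrays overlapped those of its neighbour. The difference with rotenone was 0.58 in KO and 0.69 in WT cells (adjusted p of 0.270 and 0.121 under the block).

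**Figure D1:**
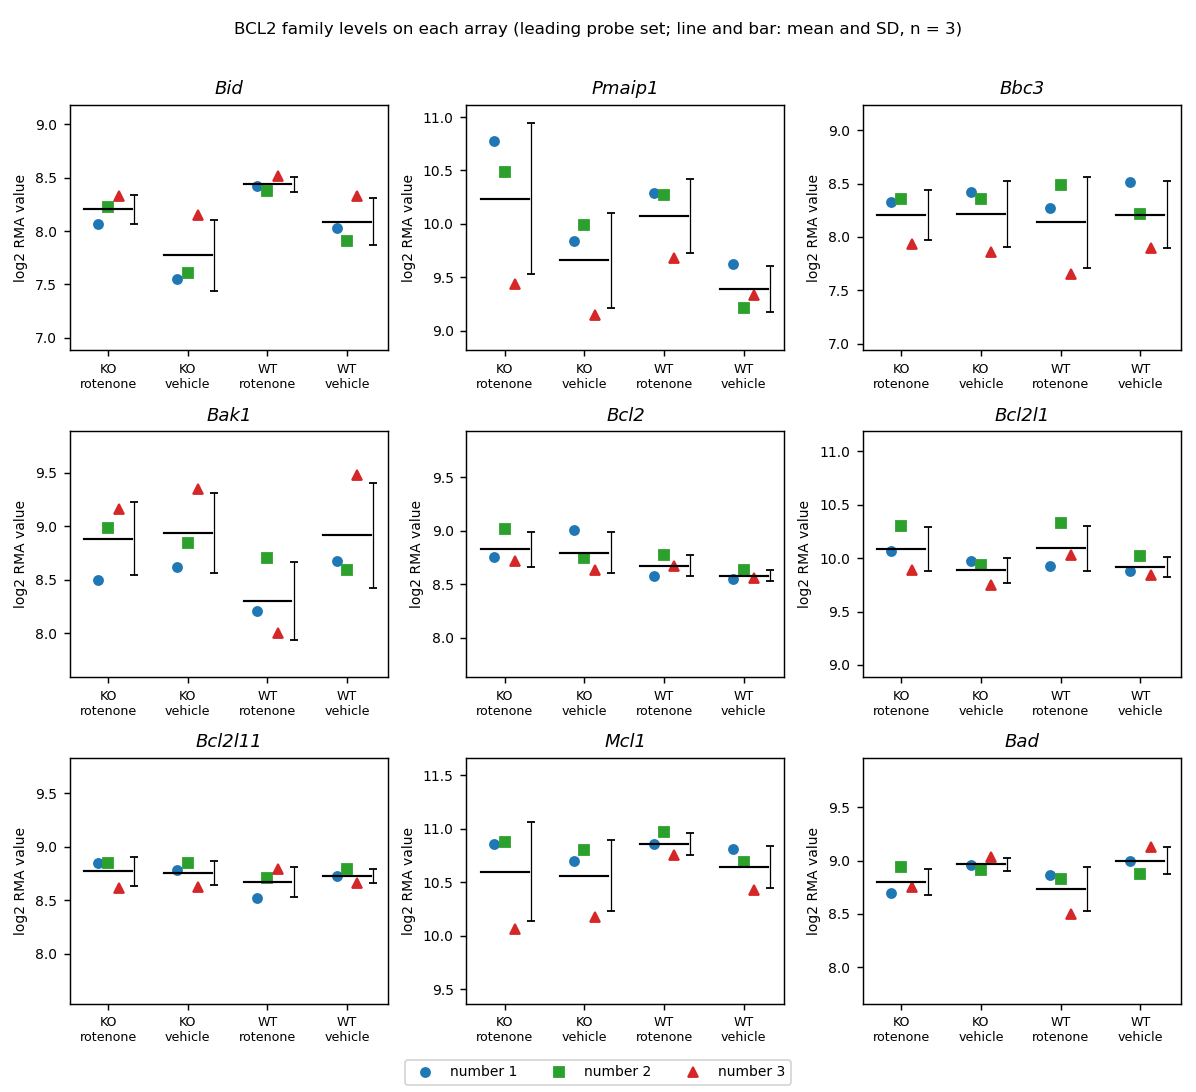
Log2 RMA value (vertical axes) of the leading, that is brightest, probe set of each measured gene in KO rotenone, KO vehicle, WT rotenone and WT vehicle cells. Symbols give the replicate number, horizontal lines the mean and bars the SD (n = 3). All panels span the same number of log2 units. Bid and Pmaip1 are higher with rotenone within each number, and Bbc3 is lowest on the arrays numbered 3 in each group.

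The calls for Bid and Pmaip1 under the block depended on which arrays were in the fit. Leaving out KO rotenone array 2 or KO vehicle array 2 put Bid at an adjusted p of 0.0501 and 0.0502, with differences of 0.35 and 0.37. Pmaip1 lost its call without KO rotenone array 1 (0.0600), KO rotenone array 2 (0.0601), KO vehicle array 1 (0.0543), WT vehicle array 1 (0.0599) or WT vehicle array 2 (0.0525), with differences of 0.52 to 0.61. Without all arrays numbered 3 the blocked rotenone difference was 0.50 for Bid and 0.79 for Pmaip1 (adjusted p of 0.000340 and 8.70e-07), in a fit that called 4.66% of all probe sets. Without number 1 the differences were 0.36 for Bid and 0.54 for Pmaip1, and without number 2 they were 0.32 and 0.56; neither gene was called in these fits, which called 0.287% and 0.194% of all probe sets. By number, the rotenone difference of Pmaip1 was 0.80, 0.78 and 0.31 for numbers 1, 2 and 3, and that of Bid 0.45, 0.54 and 0.18. No probe set of the array passed the adjusted threshold for a rotenone difference that was unlike in number 3. At an unadjusted p under 0.05 the count was 3 of 24 members, the leading sets of Bak1, Bad and Bid, against 4.52% of all probe sets.

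The remaining BH3-only genes showed no called rotenone difference. Bbc3, whose protein Puma binds all the guardians, read 8.33, 8.35 and 7.93 in KO rotenone and 8.42, 8.36 and 7.86 in KO vehicle cells, and 8.27, 8.48 and 7.66 in WT rotenone and 8.52, 8.22 and 7.89 in WT vehicle cells. The array numbered 3 was the lowest in every group, and rotenone and vehicle arrays overlapped in both genotypes. Its rotenone difference was -0.04, with a 95% interval of -0.40 to 0.32. Bcl2l11, whose protein Bim is held by microtubule-bound dynein light chain, lay between 8.52 and 8.85 on all 12 arrays of its leading set. It differed by -0.02 (-0.18 to 0.14) with rotenone on that set, and its other sets by -0.12 to 0.10. Among its sets, 1 was higher and 1 lower in KO rotenone than in KO vehicle cells without overlap. Bad, which growth factor signalling keeps phosphorylated and inactive, lay between 8.50 and 9.12 on its leading set. Its rotenone difference was -0.22 (-0.40 to -0.04) there, with an adjusted p of 0.215 under the block, and 0.01 (-0.12 to 0.15) on its second set. The Bad sets correlated at only r = 0.24 over the 12 arrays.

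Among the guardians, Bcl2l1 had 4 probe sets, of which the leading set was higher with rotenone in all 6 pairs. It read 10.06, 10.30 and 9.89 in KO rotenone and 9.97, 9.94 and 9.75 in KO vehicle cells, and 9.92, 10.33 and 10.03 in WT rotenone and 9.88, 10.02 and 9.84 in WT vehicle cells. The groups overlapped, and the difference of 0.19 ± 0.07 (SE with the block) had an adjusted p of 0.195. The other 3 sets differed by -0.07 to 0.04, and their r with the leading set ran from -0.12 to 0.44. Bcl2, the founding guardian, lay between 8.55 and 9.02 and differed by 0.06 (95% interval -0.11 to 0.24). The 6 Mcl1 sets differed by -0.10 to 0.13 with rotenone, and the leading set by 0.13 (-0.21 to 0.46).

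The pore former Bak1 was below its vehicle partner in 4 of 6 pairs with rotenone and was not called. Its leading set read 8.50, 8.98 and 9.17 in KO rotenone and 8.62, 8.84 and 9.35 in KO vehicle cells. In WT cells it read 8.21, 8.70 and 8.00 with rotenone, against 8.68, 8.59 and 9.48 with vehicle. WT rotenone array 3 was the lowest of all 12 and WT vehicle array 3 the highest, and that pair differed by -1.48 against -0.47 and 0.11 for WT pairs 1 and 2. The mean rotenone difference was -0.33 ± 0.14 (SE with the block, adjusted p = 0.289), and by number it was -0.29, 0.13 and -0.83 for numbers 1, 2 and 3. The second Bak1 set gave -0.14 (adjusted p = 0.531 under the block), with -0.55 in WT pair 3.

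**Figure D2:**
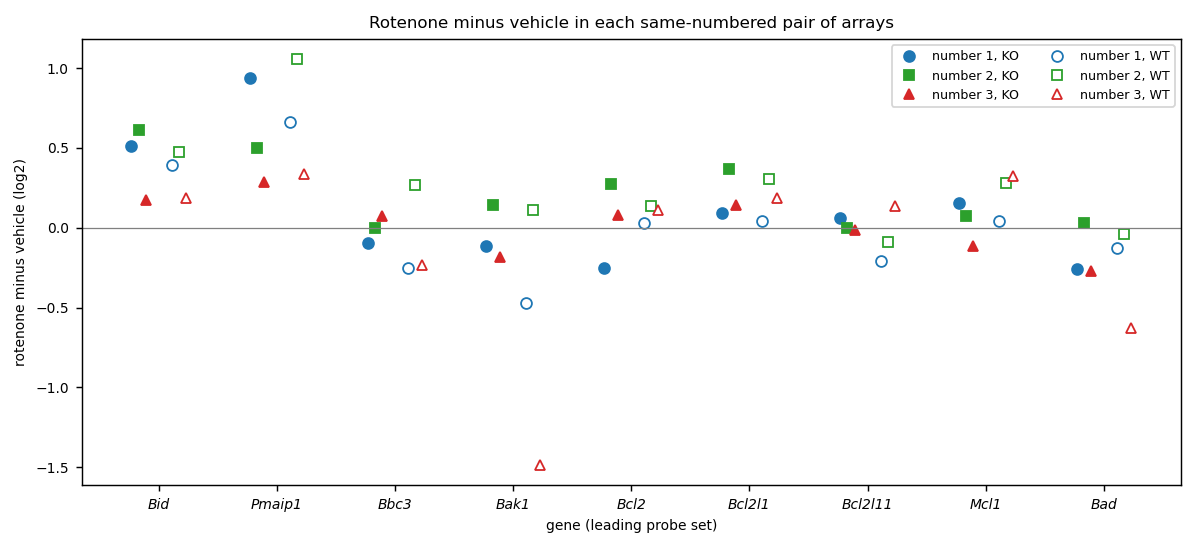
Rotenone minus vehicle (log2, vertical axis) within each same-numbered pair of arrays for the leading probe set of each gene; filled symbols are KO pairs, open symbols WT pairs, and shapes give the number. All 6 points lie above 0 for Bid, Pmaip1 and Bcl2l1, and the WT pair numbered 3 of Bak1 lies at -1.48.

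Over the family as a whole, 4 of 24 probe sets (16.7%) were higher with rotenone in all 6 pairs and 0 lower, where 11.4% of all probe sets went one way in all 6. Rotenone and vehicle arrays did not overlap for 3 of 24 in KO cells (12.5%, against 11.2% of all probe sets) and for 4 of 24 in WT cells (16.7%, against 7.34%). In WT cells these were both Bid sets and Pmaip1, higher, and the leading Bad set, lower. In each genotype alone 0 of 24 were called without or with the block, where 0.00884% of all probe sets were called in KO and 0.0133% in WT cells without it, and 0.301% and 0.628% with it. At an unadjusted p under 0.05 the counts without the block were 2 of 24 in KO and 4 of 24 in WT cells, against 3.66% and 4.36% of all. With the block they were 3 and 6 of 24, against 8.33% and 9.67%. The median rotenone difference of the 24 was 0.03, against 0.02 over all probe sets.

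The study's question was whether the response to rotenone differs with the loss of HtrA2, and for the family 0 of 24 probe sets were called in that interaction by limma, without or with the block, as was no probe set of the array (0% called). None of the 24 had an unadjusted p under 0.05 in either fit, against 0.362% of all probe sets without and 1.3% with the block. For Pmaip1 the KO response minus the WT response was -0.11, with a 95% interval of -1.09 to 0.87, and for Bid it was 0.08 (-0.40 to 0.57). Bak1 had the largest interaction among the leading sets, 0.56 (-0.29 to 1.41), with -1.48 in the WT pair numbered 3. These intervals leave room for differences as large as the responses themselves.

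Between the genotypes, 0 of 24 probe sets were called in rotenone or in vehicle, without or with the block. Without the block 0.00442% of all probe sets were called in either condition; with it the shares were 0.0398% in rotenone and 0.0177% in vehicle. At an unadjusted p under 0.05 without the block the count was 0 of 24 in both, against 5.57% of all probe sets in rotenone and 1.04% in vehicle. With the block it was 4 of 24 in rotenone, against 13%, and 1 of 24 in vehicle, against 2.95%. KO and WT arrays did not overlap for 3 of 24 in rotenone (12.5%, against 11.7% of all) and for 0 of 24 in vehicle (3.93%). The KO rotenone arrays enter both this comparison and the rotenone comparison in KO cells.

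The leading Bid set was lower in KO than in WT cells in all 3 rotenone pairs and all 3 vehicle pairs. With rotenone the difference was -0.23 (95% interval -0.58 to 0.11), and 8.06 to 8.33 on the KO arrays did not overlap 8.38 to 8.51 on the WT arrays. With vehicle it was -0.32 (-0.66 to 0.03), and the arrays overlapped. The second Bid set also lay apart with rotenone, at 7.18 to 7.22 in KO and 7.35 to 7.43 in WT cells. In the mean of both conditions, a comparison added after the data were seen, Bid differed by -0.27 with an adjusted p of 0.816 without and 0.141 with the block, and 0 of 24 members were called where 0.00884% and 0.552% of all probe sets were. At an unadjusted p under 0.05 there were 3 of 24 without and 4 of 24 with the block, against 5.99% and 13.1% of all. Without the arrays numbered 3, the block called Bid lower in KO (-0.32, adjusted p = 0.0317) and Pmaip1 higher in KO (0.43, adjusted p = 0.00498), in a fit that called 3.43% of all. Bid and Htra2 both lie on chromosome 6, and what that shared chromosome contributes to the Bid difference was not tested.

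Bak1 was higher in KO than in WT cells with rotenone in all 3 pairs, by 0.58 on the leading set (95% interval -0.02 to 1.18) and by 0.49 on the second (-0.13 to 1.10). On the leading set pairs 1, 2 and 3 differed by 0.30, 0.28 and 1.17, so the value rests mainly on pair 3, which holds the low WT rotenone array 3. On the second set they differed by 0.26, 0.38 and 0.82. The second set read 7.07, 7.01 and 7.78 on KO arrays, against 6.81, 6.63 and 6.96 on WT arrays, without overlap. With the block the adjusted p was 0.294 and 0.199. With vehicle the leading set differed by 0.02 (-0.58 to 0.62). Bcl2 read 8.71 to 9.02 in KO and 8.58 to 8.77 in WT cells with rotenone, and 8.63 to 9.00 in KO and 8.55 to 8.64 in WT cells with vehicle. Its differences were 0.15 (-0.10 to 0.41) and 0.21 (-0.04 to 0.47). For Bbc3, Bcl2l1, Bcl2l11 and Bad the leading sets differed between genotypes by -0.03 to 0.10 in either condition. The leading Mcl1 set differed by -0.26 (-0.74 to 0.21) with rotenone and -0.08 (-0.56 to 0.39) with vehicle, and Pmaip1 by 0.16 (-0.54 to 0.85) and 0.27 (-0.43 to 0.96). With the block 4 of the 18 intervals of leading sets excluded 0 before adjustment: Bid with rotenone (-0.46 to -0.0050) and with vehicle (-0.54 to -0.09), Bak1 with rotenone (0.15 to 1.02) and Mcl1 with rotenone (-0.52 to -0.0016). None had an adjusted p under 0.05.

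**Figure D3:**
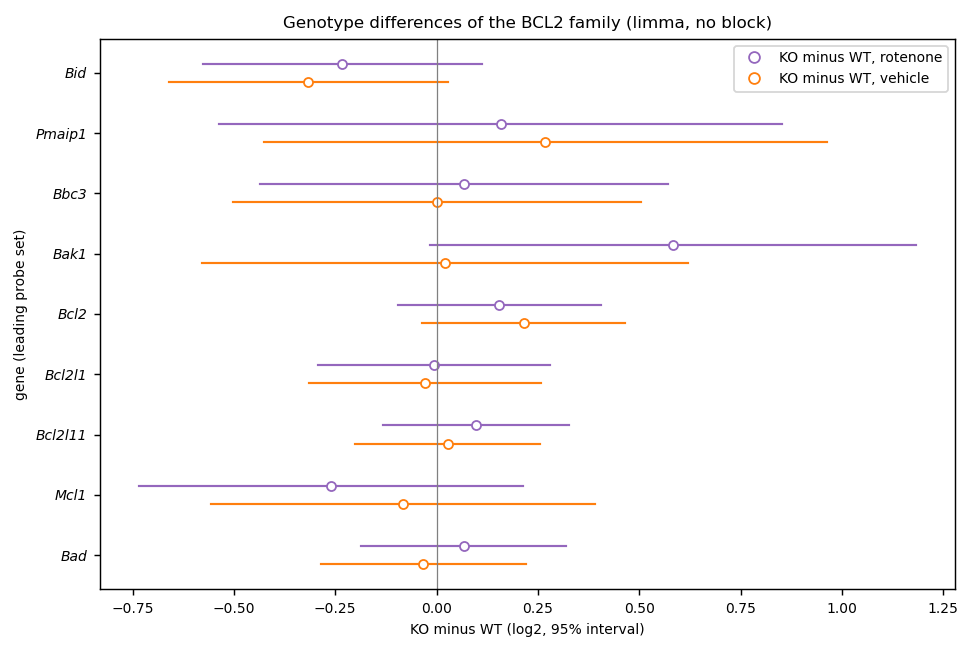
KO minus WT (log2, horizontal axis) of the leading probe set of each gene with rotenone and with vehicle; points are limma estimates without a block and lines their 95% intervals (n = 3 arrays per group). All 18 intervals include 0, whereas 14 of 18 do with the block, and the widest differences are Bak1 with rotenone (0.58) and Bid with vehicle (-0.32).

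More member probe sets were called for the replicate number than for rotenone or genotype. On arrays numbered 3, 11 of 24 member probe sets (45.8%) were called against numbers 1 and 2, where 23.9% of all probe sets were called. Of the 24, 2 were higher, against 12.6% of all, and 9 lower, against 11.3%. Of the 9 lower sets, 6 belong to 1 gene, Mcl1, so the count of probe sets weighs that gene heavily. By leading set, 1 of 9 genes was called higher and 3 lower. All 6 Mcl1 sets were lower, by -0.46 to -0.34, as were Pmaip1 (-0.66, adjusted p = 0.00190), Bbc3 (-0.53, adjusted p = 0.000190) and 1 of 4 Bcl2l1 sets (-0.22, adjusted p = 0.0195). The leading Bid set was higher by 0.31 (adjusted p = 0.0116) and the second Bak1 set by 0.58 (adjusted p = 0.000558). No Bcl2, Bcl2l11 or Bad set was called. Single arrays ended some of these calls: Bid without KO vehicle array 3 (0.22, adjusted p = 0.0993) or WT vehicle array 3 (0.29, 0.0523), and the Bcl2l1 set without KO rotenone array 3 (-0.20, 0.0774) or KO vehicle array 3 (-0.22, 0.0727). Of the 6 Mcl1 sets, 2 lost their call without KO rotenone array 3 (-0.22 and -0.21), 1 without KO vehicle array 3 (-0.33), and 1 without WT vehicle array 1 (-0.33) or WT vehicle array 3 (-0.36). The calls of Pmaip1, Bbc3, the second Bak1 set and the other 4 Mcl1 sets held without each of the 12 arrays. The arrays did not overlap for 4 of 24 (16.7%, against 11.1% of all), which were Bbc3 and 3 Mcl1 sets, all lower.

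Mcl1, a guardian with a short-lived transcript and protein, read 10.06, 10.18, 10.76 and 10.43 on the arrays numbered 3 of KO rotenone, KO vehicle, WT rotenone and WT vehicle cells. The other 8 arrays lay between 10.69 and 10.97. Of the arrays numbered 3, that of WT rotenone reached into this range and the others lay below it. The leading set differed by -0.46 ± 0.09 (SE, adjusted p = 0.00174), and the r of the other 5 sets with it ran from 0.69 to 0.96. The leading set and 2 others carry the suffix x, which Affymetrix gives to sets with probes that can match other transcripts; the 3 sets without it differed by -0.39 to -0.35. Bbc3 lay at 7.66 to 7.93 on the arrays numbered 3 and at 8.22 to 8.52 on the other 8. For Bid the second set differed by 0.03 (95% interval -0.12 to 0.18), so the call rested on 1 of its 2 sets. The leading Bak1 set differed by 0.36 (adjusted p = 0.103), so the Bak1 call also rested on 1 of 2 sets. The 2 Bak1 sets correlated at r = 0.65 over the 12 arrays.

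**Figure D4:**
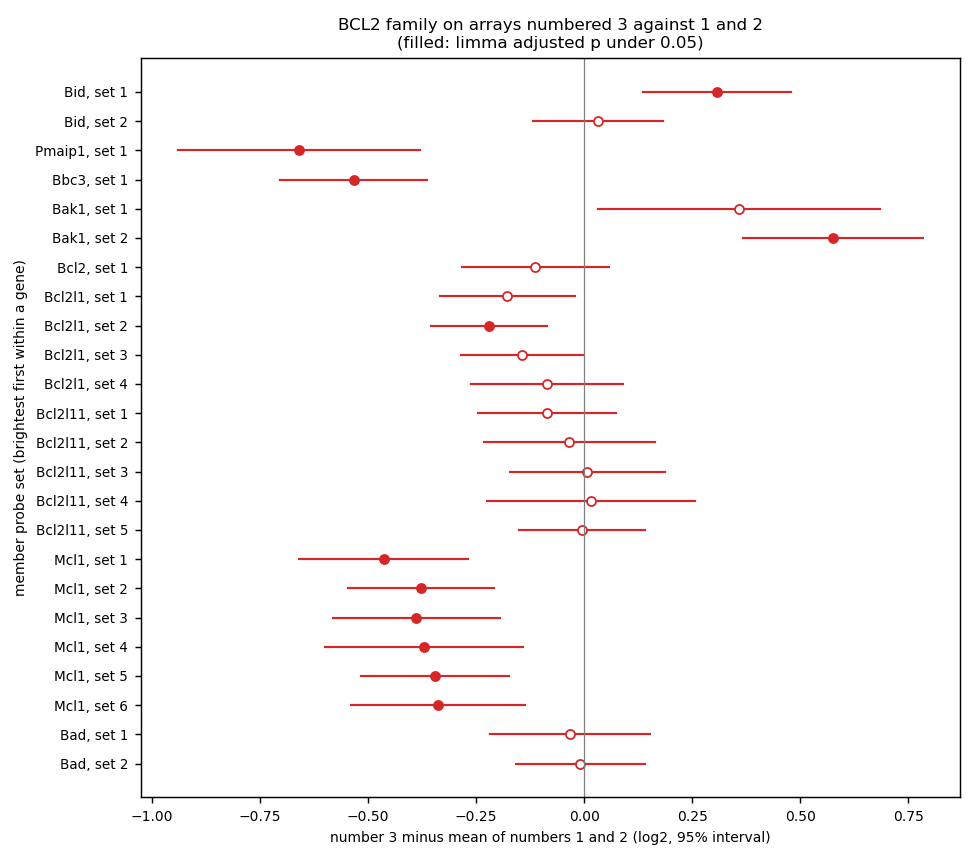
Arrays numbered 3 minus the mean of numbers 1 and 2 (log2, horizontal axis) for all 24 member probe sets, with groups in the limma fit; lines are 95% intervals and filled points have an adjusted p under 0.05. The 6 Mcl1 sets lie between -0.46 and -0.34, and the 5 Bcl2l11 sets lie close to 0.

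Markers of growth and of other cell types also differed by number, for which 23.9% of all probe sets were called. All 9 measured proliferation markers were higher on the arrays numbered 3 (median 1.41), and their mean level was 10.22 to 10.46 on these arrays against 8.69 to 9.33 on the others. Of 10 leukocyte markers 6 were higher, Lyz2, Cd68, Cd14, Tyrobp, Csf1r and Adgre1, with a mean list level of 7.13 to 7.23 against 6.63 to 6.83. Lyz2 was at 9.38 against 7.11, while Ptprc, which marks all leukocytes, was at 5.32 against 5.19 and was not called. Laptm5 (7.79 against 7.93) and Cd3e (8.02 against 8.16) went the other way, and Itgam stayed low (4.73 against 4.67). None of these was called. Of 7 epithelial markers 3 keratins (Krt8, Krt18 and Krt19) were higher, with Cdh1 at 4.02 against 3.87 and a mean list level of 7.24 to 7.63 against 6.80 to 7.06. Cldn3 went the other way, at 8.30 against 8.48, and was not called. None of 7 endothelial markers was called. Of 12 fibroblast markers 3 were higher and 4 lower. Whether such cells were present was not tested, nor was their part or that of growth in the family's differences. In bulk RNA fewer cells of a type and less RNA per cell cannot be told apart. With rotenone none of the leukocyte, epithelial or endothelial markers was called in either fit, and with the block the fibroblast receptor Pdgfra (-0.62) and the mitotic kinase Plk1 (-0.48) were called lower.

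Of the upstream regulators, 11 of 12 were measured. With rotenone, 0 were called higher and 1 lower without the block, the AP-1 subunit Jun (-0.64, adjusted p = 0.0115). With the block Jun was again called lower (adjusted p = 0.000138) and 4 were higher, all of the stress pathway that ATF4 heads: Trib3 (1.09), Ddit3 (0.92), Atf3 (0.68) and Atf4 (0.40). Ddit3 encodes CHOP, a factor reported to raise BH3-only genes. Mdm2, a target and inhibitor of p53, differed by 0.12 (adjusted p = 0.539 under the block). A part of CHOP or of p53 in the differences of Bid and Pmaip1 was not tested. On arrays numbered 3, 5 regulators were lower, Ddit3 (-1.85), Trib3 (-1.52), Atf4 (-0.51), Mdm2 (-0.42) and Atf3 (-0.39). The cell cycle factor E2f1 was higher there (0.41). Over all probe sets 12.6% were called higher and 11.3% lower for number 3, and the block called 1.33% higher with rotenone.

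Of 16 other family genes 10 were measured. With rotenone 0 were called without the block and 1 with it, Bnip3, a mitophagy receptor of the outer mitochondrial membrane (0.72, adjusted p = 0.00205 with and 0.524 without the block). On arrays numbered 3, Bnip3 (0.91), Bcl2l13 (0.54) and the pore-forming relative Bok (0.45) were higher and the guardian Bcl2l2 lower (-0.34). Of 14 measured genes of the apoptosome and caspase list, 0 were called with rotenone in either fit, with a median of -0.08. On arrays numbered 3, Aifm1 (0.71), Parp1 (0.45) and Cycs, which encodes cytochrome c (0.39), were higher and Casp12 (-0.48) and Cflar, an inhibitor of caspase-8 (-0.60), lower. Of 16 measured partners and turnover factors, 0 were called with rotenone. On arrays numbered 3 the dynein light chain Dynll2 was higher (0.31) and Usp9x, a deubiquitinase that stabilises MCL1, lower (-0.35). For number 3 these were 1 higher and 1 lower of 16. The apoptosome and caspase list had 3 and 2 of 14, and the other family genes 3 and 1 of 10. Over all probe sets 12.6% were called higher and 11.3% lower for number 3, so these counts are no finding about the lists. None of the genes of these 4 lists was called in a genotype comparison or in the interaction, in either fit.

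The genes whose leading sets followed each member most closely over the 12 arrays are given as a description; the arrays share groups and numbers, and r is the highest among 12393 genes. Bid was most like Rsrc2 (r = 0.94) and Lmcd1 (0.93), Pmaip1 most like Fjx1 (0.96) and Maff (0.95), Bbc3 most like Cox6b2 (0.99) and H2-T24 (0.97), and Mcl1 most like Hmga2 (0.98) and Slc66a2 (0.97). Bak1 was most like Reep5 and Bcat2 (both 0.94), Bcl2l1 like Prkcb (0.96) and Tollip (0.95), Bad like Cops8 (0.94) and Msrb1 (0.93), Bcl2 like Pcdhb18 (0.93) and Espn (0.92), and Bcl2l11 like Col4a2 (0.94) and Anxa9 (0.88). No 2 members shared a gene among these.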

How the data were processed

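Transcripts were measured on 12 single-colour Affymetrix arrays. The deposited values are log2 RMA values, made by the authors per the submitters' processing notes; no version was stated there. This method, as commonly run, equalises array distributions and compresses differences near background. Array medians were 7.53 to 7.58, 3 of the 24 member sets lay below the 40th percentile. With arrays, precision depends on how many there are. After 64 controls were left out, 22626 probe sets were fitted with limma 3.58.1 in R 4.3.3 (lmFit and eBayes, 4 group means, 12 arrays), with Benjamini-Hochberg adjustment over all of them and a threshold of 0.05. Number 3 was tested in a fit of group plus number. Every adjusted p is limma's, and the script was tested on simulated data.

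The titles number the arrays, and in each of the 18 same-numbered pairs deviations from the group means correlated (r from 0.289 to 0.829), so pairing by number rests on the values and not on the labels. The main fit has no block. Values of the blocked fit are named as such, also where the block changes no call.

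All member sets are described, each gene led by its brightest set. Of other lists, genes past the threshold are named, and the 2 genes most like each member by Pearson r. Pmaip1 was left out of the promoter windows, so the motif counts, that of the p53 decamer included, do not cover it. The members and lists were chosen with earlier results of these data known. Alternatives were the block, leaving out arrays or numbers, a filter on dim sets, and the mean over a gene's sets. Arrays centred on their medians and an intensity trend in eBayes were also run.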

Additional observations from a re-analysis of the deposited data

How the results depend on the processing

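With the replicate number as a block (paired analysis) the count of member probe sets called for the mean rotenone effect was 2, against 0 without it. With the block and without 1 array at a time it ran from 0 to 2, and in KO and in WT cells alone from 0 to 1. With the block and without all arrays of number 3 it was 2 for the mean effect, 2 in KO (Bid 0.56, Pmaip1 0.72), 1 in WT (Pmaip1 0.86) and 2 for the added mean genotype difference, in fits that called 4.66%, 1.52%, 1.64% and 3.43% of all probe sets. The interaction and the genotype comparisons within a treatment gave 0 under all 31 alternatives run for each, and the count for number 3 ran from 8 to 12 when arrays were left out. Averaging a gene's probe sets put Bid on arrays numbered 3 at 0.17 (adjusted p = 0.104) and Bak1 at 0.47 (0.0108). Of 135 single-gene changes under alternatives, none reversed. The block changed no other call of a member. Detection calls were not used, so signal over background is unknown for each set, and 3 arrays a group leave wide intervals.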
